A study of Mus musculus with 4 samples.

Results

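Podoplanin and 9 receptors of inhibitory or related function outside the CD28 family were followed in mouse T helper 17 (Th17) cells given serum amyloid A1 (SAA1), which the liver makes in the acute-phase response. The 10 genes, of 23356 gene rows in all, are Pdpn, Lag3, Havcr2, Tigit, Cd96, Cd226, Cd160, Cd200, Cd200r1 and Procr, and each was taken from the authors' deposited table by its symbol. They were chosen by name with their SAA1 and vehicle FPKM values in this table already in view. Those values are therefore given as a description. The q-value quoted for a member, the p adjusted over all tested genes, is an entry of the authors' deposited table and no independent support.

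RNA came from Th17 cells of wild-type C57BL/6 mice aged 6 to 8 weeks, cultured for 48 h. In the SAA1 group (2 libraries) the medium held 2 ng/ml recombinant mouse SAA1 by the label, and in the vehicle group (2 libraries) it held none. Expression is given in FPKM (fragments counted on a transcript, divided by its length and by library size), with 1 value per group. No value per library is given, so the spread between libraries cannot be shown, and depth is unknown. In bulk RNA, fewer cells of a type and less RNA per cell cannot be told apart. Nothing in the labels says whether the 2 libraries of a group came from separate mice or cultures. Every p-value quoted then rests on the spread that the authors' test assigned to these libraries only, which may be technical. How far that spread is each gene's own cannot be seen from 1 value per group.

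Podoplanin is a mucin-type membrane glycoprotein of lymphatic endothelium, stromal cells and activated myeloid cells. On T cells of mice it has been described as a brake on Th17 responses, and it binds the platelet receptor CLEC-2. TIGIT and CD96 share ligands of the nectin and nectin-like family with CD226, which is an activating receptor, so these 3 proteins compete at the same interface. LAG-3 is a relative of CD4 that binds MHC class II, TIM-3 (Havcr2) is a receptor typical of Th1 cells, CD160 binds the TNF receptor family member HVEM, and CD200 is the ligand of the inhibitory receptor CD200R1. The endothelial protein C receptor, encoded by Procr, is best known from blood vessels and has been described on Th17 cells of mice.

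The upstream regions of the genes with the highest and the lowest SAA1 to vehicle ratios among the tested members are shown first, as the ends of the range of ratios. Each window holds 250 bases before and 50 bases after a transcript start, on GRCm38.p6 from RefSeq, read 5′ to 3′ on the strand of the gene. The capitals mark matches, on either strand, to the motifs searched. Pdpn lies at chr4:143299515-143299814 (minus strand), Procr at chr2:155750967-155751266 (plus strand) and Cd160, at its outer start, at chr3:96829302-96829601 (minus strand).
Pdpn: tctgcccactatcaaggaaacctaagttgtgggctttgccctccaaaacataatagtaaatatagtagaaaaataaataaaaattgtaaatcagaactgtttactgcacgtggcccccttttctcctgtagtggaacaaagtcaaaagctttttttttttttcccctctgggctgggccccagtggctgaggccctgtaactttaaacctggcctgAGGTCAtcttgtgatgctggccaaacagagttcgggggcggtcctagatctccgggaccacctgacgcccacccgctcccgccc
Procr: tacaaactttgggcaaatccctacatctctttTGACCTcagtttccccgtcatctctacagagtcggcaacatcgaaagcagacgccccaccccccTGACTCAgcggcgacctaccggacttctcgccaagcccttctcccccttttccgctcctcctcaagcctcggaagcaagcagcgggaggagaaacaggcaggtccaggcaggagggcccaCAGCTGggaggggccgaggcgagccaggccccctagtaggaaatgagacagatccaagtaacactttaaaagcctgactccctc
Cd160: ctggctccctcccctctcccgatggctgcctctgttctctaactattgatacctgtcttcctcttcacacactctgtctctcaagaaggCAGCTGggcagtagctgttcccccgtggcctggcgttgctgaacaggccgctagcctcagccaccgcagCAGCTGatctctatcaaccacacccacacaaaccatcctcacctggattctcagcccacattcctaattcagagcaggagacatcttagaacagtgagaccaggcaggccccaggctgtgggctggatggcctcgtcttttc

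A total of 7 of the 10 genes had a RefSeq window, and Cd160 had 2. The 6 motifs were TGANTCA for AP-1, TGCTGAC as a Maf half-site, TTCNNNGAA for STAT factors, AGGTCA for ROR receptors, AGTGAAAG for Prdm1 and CAGCTG as an E-box. No matches of different motifs overlapped in the members' windows. In Pdpn the capitals mark an AGGTCA whose first base lies 34 bases before the RefSeq start. The whole Pdpn window, from 143299515, lies outside the interval of the authors' Pdpn row, which ends at 143299507. The RefSeq start is thus not the start of that row. Procr carried the reverse complement of AGGTCA, an AP-1 match and an E-box, the last also 34 bases before its start. Havcr2 was the third gene with AGGTCA, which 16.3% of all 32851 windows hold. AP-1 matches stood in Procr and Havcr2 (7.81% of all windows) and STAT matches in Cd96 and in the inner start of Cd160 (8.30%). The E-box stood in Procr, Tigit and the outer start of Cd160 (16.3% of all windows). The Maf half-site (4.67% of all windows) and the Prdm1 motif (1.32%) were in none of the members' windows. A match is a string of letters and no evidence of binding, and the absence of one concerns these letters in this window only.

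Podoplanin transcripts were far higher with SAA1, transcripts of CD226 and CD160 were lower, and the abundant members Cd200 and Lag3 were at nearly equal levels in both groups. Of the 10 genes, 9 were tested by the authors. With q under 0.05 in the authors' deposited table taken as a call, 3 were called, 1 higher (Pdpn) and 2 lower (Cd226 and Cd160). Over all 11481 tested genes the share called was 6.52%, made up of 3.97% higher and 2.55% lower. Nothing is read from the members' count against that share, since this contrast was known when they were chosen. Another 6 members were tested and not called, and Havcr2 was not tested. At an unadjusted Cuffdiff p under 0.05 stood 5 members, Tigit and Procr besides the 3 called, and 1819 of all 11481 tested genes. The median log2 ratio of SAA1 over vehicle was -0.22 over the 9 tested members and -0.02 over all tested genes.

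**Figure D1:**
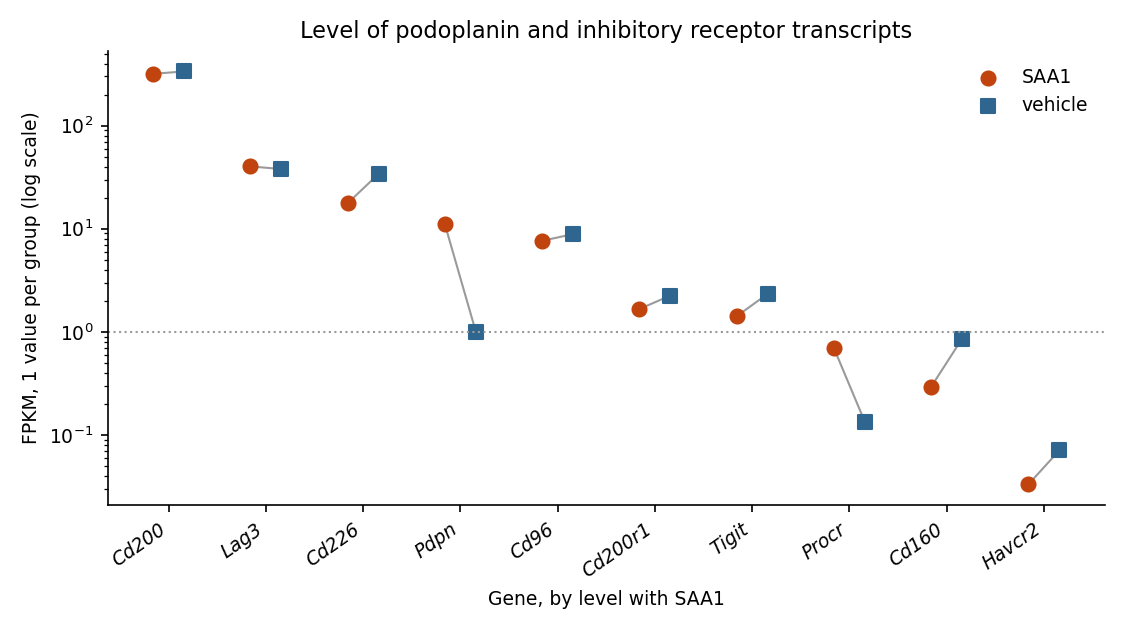
Level of each gene in FPKM (log axis), with 1 point per group (circle for SAA1, square for vehicle), ordered by the level with SAA1. Pdpn stands at 11.1 FPKM with SAA1 and at 0.993 FPKM with vehicle, the dotted line marking 1 FPKM, while Cd200 and Lag3 are almost level between the groups.

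The members spanned a wide range of levels. In the SAA1 group the order by FPKM was Cd200, Lag3, Cd226, Pdpn, Cd96, Cd200r1, Tigit, Procr, Cd160 and Havcr2. In the vehicle group it was Cd200, Lag3, Cd226, Cd96, Tigit, Cd200r1, Pdpn, Cd160, Procr and Havcr2. Podoplanin thus ranked 4 of 10 with SAA1 and 7 of 10 with vehicle. Whether neighbours in either order differ beyond their spread cannot be said from 1 value per group. Cd200 alone made up 79.8% of the summed FPKM of the 10 genes with SAA1 and 79.3% with vehicle. Without it, the other 9 summed to 80.7 FPKM with SAA1 and 87.6 FPKM with vehicle. Pdpn made up 2.78% of the sum of all 10 with SAA1 and 0.234% with vehicle.

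Pdpn, on chromosome 4 from 143267422 to 143299507 (mm10, the whole gene with its introns), stood at 11.1 FPKM in SAA1 cells and 0.993 FPKM in vehicle cells. SAA1 cells were thus the high group, and the vehicle value was just under 1 FPKM. The ratio was 11.2-fold and its log2 value was 3.48 ± 0.37 (SE implied by the authors' test statistic), and the authors' deposited table gives q = 0.0019. With a pseudocount of 1 FPKM the log2 ratio of Pdpn was 2.60. Among genes called higher, Pdpn ranked 3 of 456 by ratio. Among all 11481 tested genes it ranked 55, with 43 genes listed at 0 with vehicle among those ahead of it. By level, it lay at percentile 72.5 of all gene rows with SAA1 and at percentile 55.2 with vehicle.

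The tested genes whose pair of group values lay closest to that of Pdpn were Tmem176a, Tmem176b and Maged1. The measure was the Euclidean distance of log2(FPKM + 0.1) over the 2 group values, so it reflects 2 numbers per gene and no variation between libraries. Tmem176a, which encodes a membrane protein of intracellular compartments, lay at a distance of 0.27, with 10.1 FPKM in SAA1 cells and 1.19 FPKM in vehicle cells. Its neighbour Tmem176b lay at 0.37, with 9.19 FPKM in SAA1 cells and 1.20 FPKM in vehicle cells. Maged1, of the MAGE family of adaptor proteins, lay at 0.90, with 6.71 FPKM in SAA1 cells and 1.498 FPKM in vehicle cells. Each of the 3 has q = 0.0019 in the authors' deposited table.

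Procr, on chromosome 2 from 155751217 to 155755478, was the other member with a several-fold higher value, but it was weakly expressed. It stood at 0.698 FPKM in SAA1 cells and 0.133 FPKM in vehicle cells, so both groups were under 1 FPKM. The ratio was 5.24-fold, with a log2 value of 2.39 ± 0.97 (implied SE). The gene was not called (q = 0.10, authors' deposited table). At this level the size of the ratio depends on how small values are handled, and with a pseudocount of 1 FPKM the log2 ratio of Procr was 0.58.

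**Figure D2:**
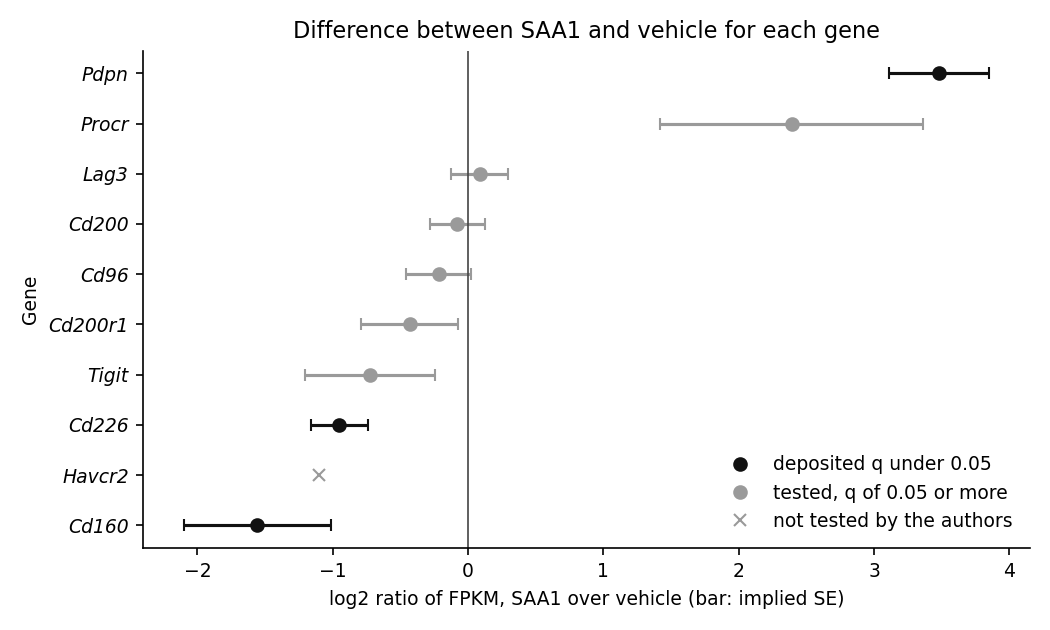
The log2 ratio of FPKM, SAA1 over vehicle, for each gene (point) with the SE implied by the authors' test statistic (bar). Pdpn (3.48) and Procr (2.39) stand to the right, most other genes lie near or left of 0, and Havcr2 (cross) has no SE because it was not tested.

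The receptors of nectin ligands were lower or similar with SAA1, with a call for CD226 only. Cd226, the activating receptor of the group, stood at 17.7 FPKM in SAA1 cells and 34.2 FPKM in vehicle cells. It was 1.93-fold lower in SAA1 cells, with a log2 ratio of -0.95 ± 0.21 (implied SE; q = 0.0019, authors' deposited table). Tigit, an inhibitory receptor, stood at 1.41 FPKM in SAA1 cells and 2.34 FPKM in vehicle cells, with a log2 ratio of -0.72 ± 0.48 (implied SE). Cd96, the third receptor, stood at 7.63 FPKM in SAA1 cells and 8.88 FPKM in vehicle cells, with a log2 ratio of -0.22 ± 0.24 (implied SE). All 3 values were lower in the SAA1 group, and only that of Cd226 passed the threshold. Tigit has q = 0.26 (unadjusted Cuffdiff p = 0.036) and Cd96 q = 0.63 in the authors' deposited table.

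The proportions among these 3 transcripts were also set side by side, as a description of values already in view and not as a test. Cd226 FPKM was 2.31 times that of Cd96 in SAA1 cells and 3.85 times in vehicle cells. The log2 ratio of Cd226 minus that of Cd96 was -0.73 ± 0.32 (SE of the difference, taking the 2 implied errors as independent). Cd226 FPKM was 12.5 times that of Tigit in SAA1 cells and 14.6 times in vehicle cells, a difference of log2 ratios of -0.23 ± 0.53. The summed FPKM of Tigit and Cd96 was 0.512 times that of Cd226 in SAA1 cells and 0.328 times in vehicle cells. Cd226 remained the most abundant of the 3 transcripts in both groups.

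Cd160, on chromosome 3 from 96798763 to 96829351, encodes a lipid-anchored receptor of CD8 T cells and natural killer cells. It stood at 0.292 FPKM in SAA1 cells and 0.861 FPKM in vehicle cells, so both groups were under 1 FPKM, as with Procr. The gene was 2.94-fold lower in SAA1 cells, with a log2 ratio of -1.56 ± 0.54 (implied SE; q = 0.013, authors' deposited table). With a pseudocount of 1 FPKM the log2 ratio of Cd160 was -0.53. This call did not hold at a threshold of 0.01 or with a normal p taken from the deposited statistic. Among 7 markers listed for natural killer and CD8 T cells, 5 were under 1 FPKM in both groups and 0 of the 2 tested were called by Cuffdiff, with 1 of 2 at an unadjusted p under 0.05. Their summed level was 5.56 FPKM with SAA1 and 5.18 FPKM with vehicle. Cd8b1 made up most of this, at 4.24 FPKM with SAA1 and 4.32 FPKM with vehicle. Prf1 stood at 1.02 FPKM with SAA1 and 0.604 FPKM with vehicle. Klrb1c was at 0 in both groups and Cd8a at 0.103 FPKM with SAA1 and 0.164 FPKM with vehicle.

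Lag3 and Cd200 were the most abundant members and showed the smallest ratios. Lag3, on chromosome 6 from 124904359 to 124911705, stood at 40.2 FPKM in SAA1 cells and 37.9 FPKM in vehicle cells. Its log2 ratio was 0.08 ± 0.21 (implied SE), with a normal 95% interval from -0.32 to 0.49 (q = 0.91, authors' deposited table). Cd200 stood at 318 FPKM in SAA1 cells and 336 FPKM in vehicle cells, at percentile 99.0 of all gene rows with SAA1 and 99.1 with vehicle. Its log2 ratio was -0.08 ± 0.20 (implied SE), with a normal 95% interval from -0.48 to 0.32 (q = 0.91, authors' deposited table). These intervals rest on the implied SE and give no limit of detection for the authors' test. That test called Cd3e at a log2 ratio of -0.47 ± 0.22 (implied SE; q = 0.039, authors' deposited table).

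Lag3 and Cd226 had close levels in vehicle cells and apart ones in SAA1 cells. Lag3 FPKM was 2.28 times that of Cd226 in SAA1 cells and 1.11 times in vehicle cells. The log2 ratio of Lag3 minus that of Cd226 was 1.04 ± 0.30 (SE of the difference, errors taken as independent). With log2 ratios of 0.08 for Lag3 and -0.95 for Cd226, it mostly repeats the lower Cd226 value. It describes members chosen with these values in view and is no test.

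Cd200r1, the inhibitory receptor for CD200, was expressed at a small fraction of its ligand. It stood at 1.67 FPKM in SAA1 cells and 2.25 FPKM in vehicle cells, with a log2 ratio of -0.43 ± 0.36 (implied SE; q = 0.43, authors' deposited table). Cd200 FPKM was 191 times that of Cd200r1 in SAA1 cells and 149 times in vehicle cells, which are ratios between transcripts and not between proteins. Cd200r1 has closely related neighbours in mice, so reads may have been divided among them. Cd200r4, the next gene row after it, stood at 0.208 FPKM in SAA1 cells and 0.174 FPKM in vehicle cells and was not tested.

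Havcr2, which encodes TIM-3, was barely detected in either group. It was listed at 0.0331 FPKM in SAA1 cells and 0.0710 FPKM in vehicle cells and carried the status that Cuffdiff gives to genes with too few fragments for a test. A lower value in the SAA1 group at this level shows no difference, and none was tested.

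**Figure D3:**
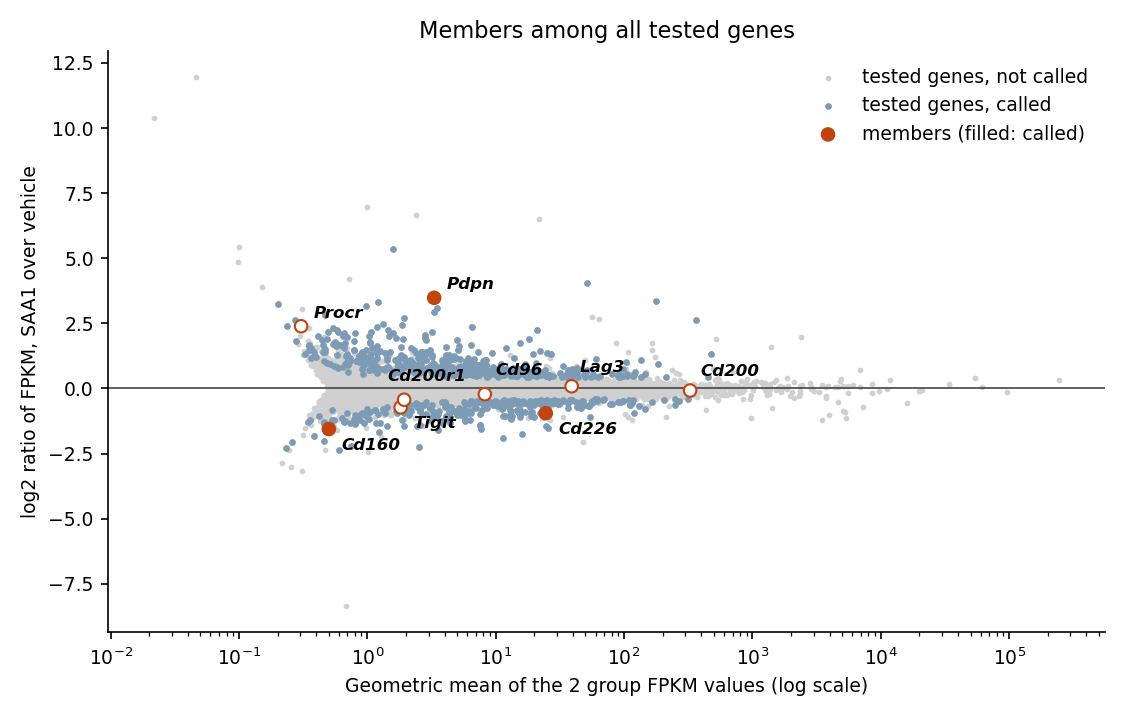
The log2 ratio of FPKM, SAA1 over vehicle, against the geometric mean of both group values (log axis) for tested genes with a value above 0 in both groups. Members are ringed in red and filled where called, with Pdpn well above 0, Cd226 and Cd160 below it, and Lag3, Cd200 and Cd96 within the dense cloud of genes that were not called.

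The level of a gene sets how precisely its ratio is known, and the members fall on both sides of 1 FPKM. Of the 12655 gene rows under 1 FPKM in both groups, 6.26% were tested, and the median implied SE of those tested was 0.57 on the log2 scale. Cd160, Procr and Havcr2 were in that range. For genes whose higher group value lay from 1 to 10 FPKM, as for Tigit, Cd96 and Cd200r1, the median implied SE was 0.28. From 10 to 100 FPKM, as for Pdpn, Lag3 and Cd226, it was 0.21, and above 100 FPKM, as for Cd200, 0.20. The implied SE of Pdpn (0.37), Tigit (0.48) and Procr (0.97) each exceeded the median for its level.

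None of the 10 genes shared its interval with another gene row, and 4 of them, Tigit, Cd200r1, Cd200 and Cd96, lie on chromosome 16. The gene row nearest to each member on either side gave 20 neighbours. Of these, 13 were tested and 2 called by the authors' deposited table, where 6.52% of all tested genes were called. Ptms, which encodes the nuclear protein parathymosin, begins 2.0 kb from Lag3. It rose to 43.6 FPKM in SAA1 cells, against 29.7 FPKM in vehicle cells (q = 0.0082, authors' deposited table), while Lag3 was not called. The other was Pvrl3, at 274.6 kb from Cd96. Around Pdpn, the nearest tested row, Prdm2, stood at 7.61 FPKM in SAA1 cells and 7.28 FPKM in vehicle cells and was not called.

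Ligands and binding partners of the receptors moved in both directions. Of 18 listed genes, 11 were tested, and 2 were higher, 1 was lower and 8 were not called by the q-values of the authors' deposited table. The median log2 ratio of the 11 genes that reached 1 FPKM in a group was -0.02, the same as over all genes at that level. The share called among all tested genes was 6.52%. Earlier results were known when the list was chosen, so its count is a description only. Pvrl2, which encodes nectin-2, a ligand of CD226, rose to 1.32 FPKM in SAA1 cells, against 0.556 FPKM in vehicle cells (log2 ratio 1.25 ± 0.45, implied SE). Pvrl3, which encodes nectin-3, a relative of nectin-2, rose to 2.91 FPKM in SAA1 cells, against 1.67 FPKM in vehicle cells (0.80 ± 0.31). Tnfrsf14, which encodes HVEM, the ligand of CD160, fell to 12.4 FPKM in SAA1 cells, against 18.6 FPKM in vehicle cells (-0.59 ± 0.26). Both nectins have q = 0.011 and Tnfrsf14 q = 0.023 in the authors' deposited table, and none of these 3 calls held at a threshold of 0.01.

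Pvr, the shared ligand of CD226, TIGIT and CD96, was well expressed and not called, at 10.4 FPKM in SAA1 cells and 10.5 FPKM in vehicle cells. Clec1b, which encodes the podoplanin receptor CLEC-2, was listed at 0 in both groups, as was the LAG-3 ligand Fgl1. Proc, which encodes protein C, the ligand of the Procr product, was listed at 0 with SAA1 and at 0.0324 FPKM with vehicle. Cd44 and Cd9, which encode membrane proteins that bind podoplanin, were abundant and not called. Cd44 stood at 53.2 FPKM in SAA1 cells and 64.8 FPKM in vehicle cells, and Cd9 at 74.2 FPKM in SAA1 cells and 65.3 FPKM in vehicle cells. Lgals9, which encodes the TIM-3 ligand galectin-9, stood at 14.4 FPKM in SAA1 cells and 19.5 FPKM in vehicle cells (q = 0.083, authors' deposited table). Lgals3, another galectin gene of the list, went the other way. It stood at 6.04 FPKM in SAA1 cells and 3.90 FPKM in vehicle cells and was just not called (q = 0.051, authors' deposited table).

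Genes for the cytoplasmic partners of these receptors held a single call. Of 14 tested, 1 was called higher and 0 lower by Cuffdiff in the authors' deposited table, with 2 at an unadjusted p under 0.05, and the median log2 ratio was -0.01. The share called among all tested genes was 6.52%. Dok1, an adaptor that dampens Ras signalling and has been reported as a partner of CD200R1, rose to 22.8 FPKM in SAA1 cells, against 16.1 FPKM in vehicle cells (log2 ratio 0.50 ± 0.22; q = 0.023, authors' deposited table). Its relative Dok2 stood at 27.2 FPKM in SAA1 cells and 29.6 FPKM in vehicle cells and was not called. Ezr and Msn, which encode ezrin and moesin, linkers between podoplanin and actin, were not called. Ezr stood at 87.0 FPKM in SAA1 cells and 84.4 FPKM in vehicle cells. Msn stood at 70.1 FPKM in SAA1 cells and 90.04 FPKM in vehicle cells.

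Genes reported to control co-inhibitory receptors in mouse T cells held 5 calls. The list has transcription factors, the cytokine receptor chains Il27ra and Il6st, and the cytokine gene Il10. Of 17 tested, 4 were higher, 1 was lower and 12 were not called by the q-values of the authors' deposited table. The median log2 ratio of the 16 that reached 1 FPKM was 0.09. The share called among all tested genes was 6.52%. Nothing is read from the list's count against that share, since the list was chosen with earlier results known. Maf, one of these reported regulators, rose to 14.9 FPKM in SAA1 cells, against 2.87 FPKM in vehicle cells (log2 ratio 2.37 ± 0.25, implied SE). Rbpj, the nuclear effector of Notch signalling, rose to 23.6 FPKM in SAA1 cells, against 12.2 FPKM in vehicle cells (0.95 ± 0.21). Nr4a2, a nuclear receptor induced by antigen receptor signals, rose to 19.9 FPKM in SAA1 cells, against 11.8 FPKM in vehicle cells (0.75 ± 0.21). All 3 have q = 0.0019 in the authors' deposited table.

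Completing the count, the transcription factor gene Nfil3 rose to 15.6 FPKM in SAA1 cells, against 9.32 FPKM in vehicle cells (log2 ratio 0.74 ± 0.23). Nfatc1, a calcium-regulated factor, fell to 17.9 FPKM in SAA1 cells, against 25.1 FPKM in vehicle cells (-0.48 ± 0.21; q = 0.019, authors' deposited table). The call of Nfatc1 was lost at q under 0.01, with a fold minimum of 1.5 and with a normal p of the deposited statistic. Prdm1, which encodes Blimp-1 and has been reported to act with Maf on these receptors, was listed at 0.0303 FPKM with SAA1 and 0.0169 FPKM with vehicle and was not tested. Tbx21, Tox and Nr4a1 were tested and not called. Il10, under 1 FPKM in both groups, stood at 0.602 FPKM in SAA1 cells and 0.148 FPKM in vehicle cells and was not called (q = 0.20, authors' deposited table).

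**Figure D4:**
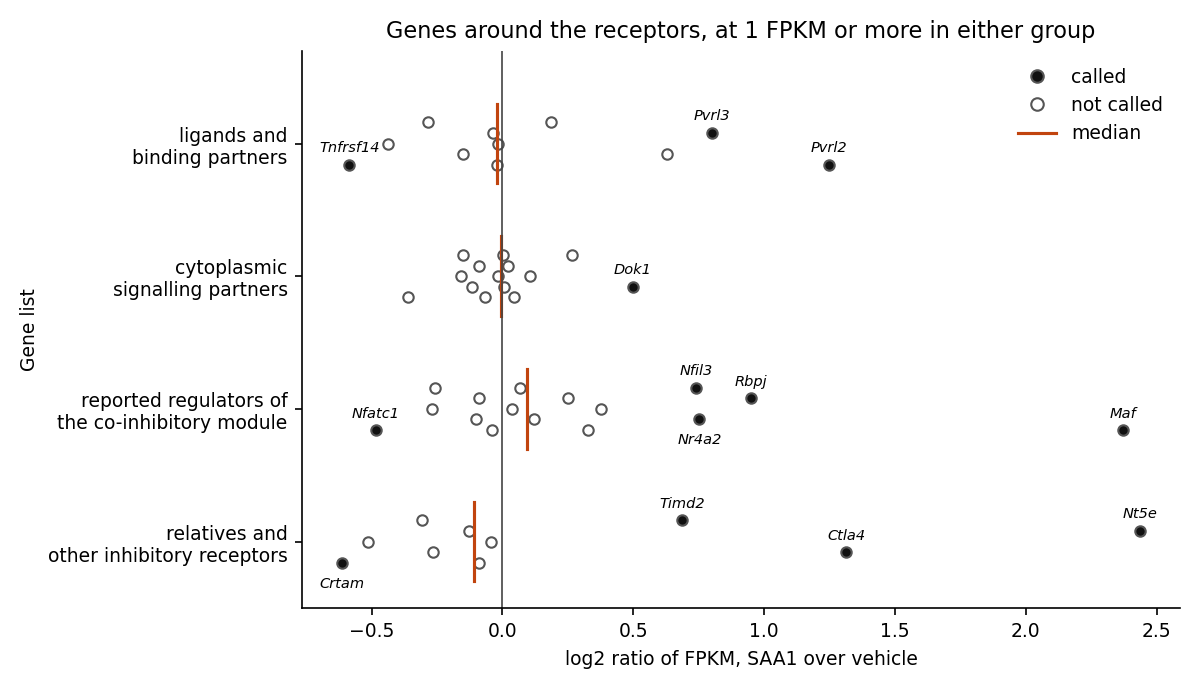
The log2 ratio of FPKM, SAA1 over vehicle, for genes of 4 lists with at least 1 FPKM in either group (filled where called, named beside the point) and the median of each list (red line). Medians lie between -0.11 and 0.09, with single called genes such as Maf and Nt5e far to the right.

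The list of relatives and other inhibitory receptors, which also holds the ectoenzyme gene Nt5e, held calls in both directions. Of 24 listed genes 23 had a row and 12 were tested, and 3 were higher, 1 was lower and 8 were not called by the q-values of the authors' deposited table. The median log2 ratio of the 10 that reached 1 FPKM was -0.11. Among all tested genes 6.52% were called. The list was chosen with earlier results known, so its count is a description only. Nt5e, which encodes the ectoenzyme CD73 and no receptor, stood at 4.30 FPKM in SAA1 cells and 0.795 FPKM in vehicle cells (log2 ratio 2.44 ± 0.32). Ctla4, an inhibitory receptor of the CD28 family, had a log2 ratio of 1.31 ± 0.20. Both have q = 0.0019 in the authors' deposited table. Timd2, a TIM family receptor gene of mice, rose to 6.33 FPKM in SAA1 cells, against 3.93 FPKM in vehicle cells (0.69 ± 0.25). Crtam, a receptor for a nectin-like protein, fell to 8.76 FPKM in SAA1 cells, against 13.4 FPKM in vehicle cells (-0.61 ± 0.23). Timd2 and Crtam have q = 0.0047 in the authors' deposited table, and neither call held with a normal p of the deposited statistic. Pdcd1 and Btla, which encode the receptors PD-1 and BTLA, were not called. Pdcd1 stood at 135 FPKM in SAA1 cells and 144 FPKM in vehicle cells. Btla stood at 167 FPKM in SAA1 cells and 200.2 FPKM in vehicle cells.

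Cells were checked against defining markers. All 8 T cell markers listed were above 1 FPKM in both groups, and summed to 1378 FPKM with SAA1 and 1474 FPKM with vehicle. Of these, Thy1 was called higher and Cd3e lower by the authors' deposited table. The 6 Th17 markers summed to 1776 FPKM with SAA1 and 356 FPKM with vehicle, and all 6 were called higher by the authors' deposited table. Over all tested genes the share called higher was 3.97%. Podoplanin transcripts are typical of fibroblastic stroma and lymphatic endothelium, so markers of these were listed beside it. Of 9 stromal genes 8 had a row and 7 of these were under 1 FPKM in both groups, Ccl19 being at 0. The exception was Lum, called lower, at 5.83 FPKM with SAA1 and 22.0 FPKM with vehicle. The summed level of the stromal list was 6.27 FPKM with SAA1 and 22.3 FPKM with vehicle, most of it Lum. Without Lum it was 0.434 FPKM with SAA1 and 0.289 FPKM with vehicle, and its part in the Pdpn values was not tested. Among 7 endothelial genes, 6 were under 0.1 FPKM in both groups, including Lyve1 and Prox1, and the list summed to 3.80 FPKM with SAA1 and 4.45 FPKM with vehicle, nearly all of it Pecam1.

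Markers of further cell types were low. The 12 myeloid and dendritic genes summed to 2.14 FPKM with SAA1 and 2.81 FPKM with vehicle, with 11 under 1 FPKM in both groups, and C1qa and C1qb were at 0. The 5 mast cell and basophil genes summed to 0.657 FPKM with SAA1 and 0.647 FPKM with vehicle, and the 4 epithelial genes to 1.10 FPKM with SAA1 and 0.631 FPKM with vehicle. The 6 B cell genes summed to 2.34 FPKM with SAA1 and 3.50 FPKM with vehicle. By Cuffdiff in the authors' deposited table, 0 genes of these 4 lists were called, and 1 B cell gene had an unadjusted p under 0.05.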

How the data were processed

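RNA of mouse Th17 cells was sequenced from 2 SAA1 and 2 vehicle TruSeq libraries, per the labels' protocols, and samples were grouped by their titles. TopHat2, Cuffdiff and the builds mm9 and mm10 are named in the submitters' processing notes; the sources used here give no versions, strand settings or scaling. The authors' table of gene differences holds 1 FPKM value per group, and its p-value and q-value columns are the authors' own, per the file headers. The deposited test statistic is a score, read as the log ratio in units of its standard error. The deposited p-values do not follow from a normal reading of that score. For Tigit the normal 95% interval by the implied SE runs from -1.67 to 0.22, yet the deposited Cuffdiff p is 0.036. The implied SE and the deposited q are thus not 1 measure of precision.

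Log2 ratios were recomputed from FPKM without a pseudocount, and an SE was taken as the ratio over the deposited statistic. A gene was called at a deposited q under 0.05, adjusted over all tested genes. The smallest deposited p is 5e-05, shared by 300 genes, so the smallest q is 0.0019. Benjamini-Hochberg values recomputed from the deposited p differed from the deposited q by at most 5.23e-07. All 10 members overlap the GRCm38 RefSeq gene of the same symbol, so coordinates are given on mm10, with starts counted from 1. Tests on values per library had been foreseen and could not be made from group values. Functions for adjustment, overlap and motifs were tested on simulated data.

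The members and the gene lists were chosen with earlier results of these data known. Named were all members, up to 3 called genes per list by smallest q and then fold, the 3 genes most like Pdpn, called neighbours, and markers. Nfil3, Nfatc1, Crtam and the uncalled list genes were chosen after their values were seen. The pairs of members set side by side were not part of the plan. Protein sequences were not used here. Python 3.11.15, pandas 2.3.3, SciPy 1.17.1 and matplotlib 3.10.9 were used.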

Additional observations from a re-analysis of the deposited data

How the results depend on the processing

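Pdpn and Cd226 were called under all 6 alternatives run (q under 0.01 or 0.1, a fold of at least 1.5, a minimum of 1 FPKM, a normal p of the deposited statistic, and leaving out rows with an overlapping locus, the last 2 added after the data were seen). Cd160 was lost at q under 0.01, with the normal p, and with the minimum of 1 FPKM, which it does not reach, so the members called numbered 2 or 3. At q under 0.01 no ligand or binding partner (0, against 3) and no cytoplasmic partner (0, against 1) was called, and at q under 0.1 there were 5 ligands and binding partners. Without rows that share a locus, 4 ligands and binding partners were called, Lgals3 being the one added. With the normal p, 0 ligands and binding partners and 0 cytoplasmic partners were called. In the list of relatives and other inhibitory receptors that p left 2 calls (Ctla4 and the ectoenzyme gene Nt5e), against 4. With the fold minimum 0 cytoplasmic partners were called. Calls among reported regulators numbered 4 or 5, Nfatc1 being the one lost. Of 30 alternative log2 ratios of members (pseudocounts of 0.1 and 1 FPKM, centring on the median), 24 moved by less than the implied SE, 6 moved by more or had no SE (Pdpn, Cd160 and Procr with a pseudocount of 1 FPKM, and Havcr2), and 0 called ones changed sign. No paired analysis was possible because the columns carry 1 value per group and no replicate; for the same reason the omission of each replicate and the fits on values per library were not run. Ratios of Procr, Cd160 and Havcr2, all under 1 FPKM, rest on low values, and depth is unknown.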
